A study of Homo sapiens with 16 samples.

Results

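Very wide open regions are stretches of at least 5000 bases over which the open-chromatin peaks of these libraries chain together without a gap. They were found by merging the peaks of all 16 libraries on chromosomes 1 to 22 and X wherever peaks overlapped by at least 1 base, and 181 of the 321056 merged regions reached that width. Progenitors came from brain organoids of the human embryonic stem cell line H9 and were sorted as SOX2::EGFP+ cells, in which EGFP marks expression of SOX2. Neurons were sorted from such organoids as hSYN1::dTomato+ cells, in which the promoter of the human synapsin gene SYN1 drives the red reporter, so that this population holds whichever cells use that promoter. Both populations were taken at days 40, 60, 90 and 120, the genotype is given as WT throughout, and each of the 8 groups had 2 libraries. All libraries come from 1 cell line. Nothing in the labels ties the 2 libraries of a group to separate organoid cultures, and every p-value therefore measures the spread among libraries, possibly a technical one.

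In ATAC-seq the Tn5 transposase cuts DNA that is not wrapped in nucleosomes, and a peak is a stretch with more cuts than its surroundings. Most open sites are single promoters or enhancers about as long as a gap between nucleosomes. Wider open stretches arise where a promoter, its CpG island and neighbouring enhancers lie next to each other, and genes that control cell identity are known to have such stretches. The members were chosen by the width that peaks of all libraries cover together, so their widths, the number of libraries in them and their covered bases are descriptions. The choice pooled the 16 libraries and did not use the labels of population or day. It did use the covered bases that are compared later. A region can therefore reach the width through bases covered mostly in a single population, as the profiles of RFX4 and SRRM4 below show. The p-values of wide regions are thus not independent of how the regions were chosen.

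The libraries differed in how much was called. The lists held 67977 to 138432 peaks and covered 36.9 Mb (progenitor day 120 replicate 2) to 104 Mb (neuron day 40 replicate 1), at unknown read depth. Summed covered bases around 6 progenitor markers were 29.0 to 78.7 kb (median 61.9) in progenitors and 25.9 to 54.8 kb (median 41.1) in neurons. Around 6 neuronal markers they were 25.9 to 94.4 kb (median 69.5) in progenitors and 54.4 to 155 kb (median 96.9) in neurons, and none of these markers was at 0 in either population. Summed markers of 7 other cell types had 0.969 to 20.9 kb per library. Of their 15 genes, LUM, a mesenchymal marker, and NANOG, a pluripotency marker, were at 0 in some libraries of both populations.

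Promoters of 5 of the genes are shown as examples of gene starts that lie inside wide regions, though not at their centre. Each is the 250 bases before the RefSeq start (GRCh38.p14, the same coordinates as hg38), from 5′ to 3′ on the plus strand, with each CpG in capitals. SOX2 is the gene used to sort the progenitors, RFX4, FOS and ID2 lie in regions covered further in progenitors, and SRRM4 lies in one covered further in neurons.
SOX2, chr3:181711675-181711924: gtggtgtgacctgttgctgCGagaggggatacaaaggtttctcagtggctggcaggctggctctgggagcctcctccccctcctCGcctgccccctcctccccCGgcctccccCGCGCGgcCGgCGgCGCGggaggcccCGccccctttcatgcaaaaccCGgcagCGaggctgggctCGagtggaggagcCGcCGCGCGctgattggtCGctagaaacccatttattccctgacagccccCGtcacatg
RFX4, chr12:106582754-106583003: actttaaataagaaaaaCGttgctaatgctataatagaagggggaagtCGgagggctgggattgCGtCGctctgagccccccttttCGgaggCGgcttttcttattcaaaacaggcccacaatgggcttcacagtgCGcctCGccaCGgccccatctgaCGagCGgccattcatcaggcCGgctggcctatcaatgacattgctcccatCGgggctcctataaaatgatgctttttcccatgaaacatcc
FOS, chr14:75278578-75278827: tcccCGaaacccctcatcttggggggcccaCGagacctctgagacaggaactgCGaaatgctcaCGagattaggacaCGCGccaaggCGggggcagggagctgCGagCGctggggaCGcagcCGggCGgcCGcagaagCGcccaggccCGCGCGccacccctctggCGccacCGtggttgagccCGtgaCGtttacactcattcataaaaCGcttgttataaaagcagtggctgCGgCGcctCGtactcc
ID2, chr2:8681806-8682055: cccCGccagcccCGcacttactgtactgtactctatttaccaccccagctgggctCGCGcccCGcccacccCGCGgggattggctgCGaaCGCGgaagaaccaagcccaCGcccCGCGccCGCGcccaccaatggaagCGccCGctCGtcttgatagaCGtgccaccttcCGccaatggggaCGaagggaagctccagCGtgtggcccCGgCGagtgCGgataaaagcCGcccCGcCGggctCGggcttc
SRRM4, chr12:118981291-118981540: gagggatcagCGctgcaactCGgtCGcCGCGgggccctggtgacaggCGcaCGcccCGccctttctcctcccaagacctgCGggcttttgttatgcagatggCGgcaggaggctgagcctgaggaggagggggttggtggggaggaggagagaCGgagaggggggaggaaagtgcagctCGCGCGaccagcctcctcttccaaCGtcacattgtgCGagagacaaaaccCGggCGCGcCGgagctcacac
The 250 bases hold 20 CpG at SOX2, 13 at RFX4, 25 at FOS, 29 at ID2 and 20 at SRRM4, and their GC content is 68.8%, 52.0%, 64.8%, 69.2% and 66.4% in the same order. RFX4 is the poorest in CpG of the 5. Over the 300 bases from 250 before to 50 after each start, the 147 protein-coding starts in wide regions had a median of 28 CpG and 67.3% GC, against 21 CpG and 62.3% GC at all 22132 starts. The 2097 starts in merged regions of 3000 to under 5000 bases had 30 CpG and 69.7% GC, and the 12934 starts in other regions with a peak in all 16 libraries had 27 CpG and 65.7% GC. The upper quartile of CpG was 40 in wide regions, 38 in regions of 3000 to under 5000 bases and 34 in the other shared regions. The letters GGGCGG, read on both strands, stood in 74.1% of starts in wide regions, in 73.6% of those in regions of 3000 to under 5000 bases, in 71.1% of those in the other shared regions and in 56.3% of all starts. The letters TGACGTCA, which read the same on both strands, stood in 2.72% (4 starts), 2.15%, 3.25% and 2.26% of them in the same order.

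The 181 wide regions were 5001 to 8973 bases wide with a median of 5453, while the median over all merged regions was 652. Together they held 1030 kb, or 0.383% of all merged bases. The widest were at NFIB (8973 bases), a factor of glial and neuronal maturation, CELF2 (8051), an RNA-binding protein, GLI2 (7940), a transcription factor of Hedgehog signalling, SIX3 (7860), a factor of early forebrain, ACTB (7702, 623 bases outside the gene), ZNF217 (7437) and FOS (7296), the early-response factor. ZIC2 (7258), ZIC5 (7246) and ID2 (7237) followed, the first pair encoding zinc-finger factors of neural patterning and ID2 an inhibitor of basic helix-loop-helix factors. At the threshold, EFNA5 (5001), SLITRK4 (5002) and a stretch whose nearest gene is C4orf33 (5005) were just inside, and YWHAH (4999), a second stretch of CNTFR (4996) and PAX6 (4995) were just outside.

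**Figure D1:**
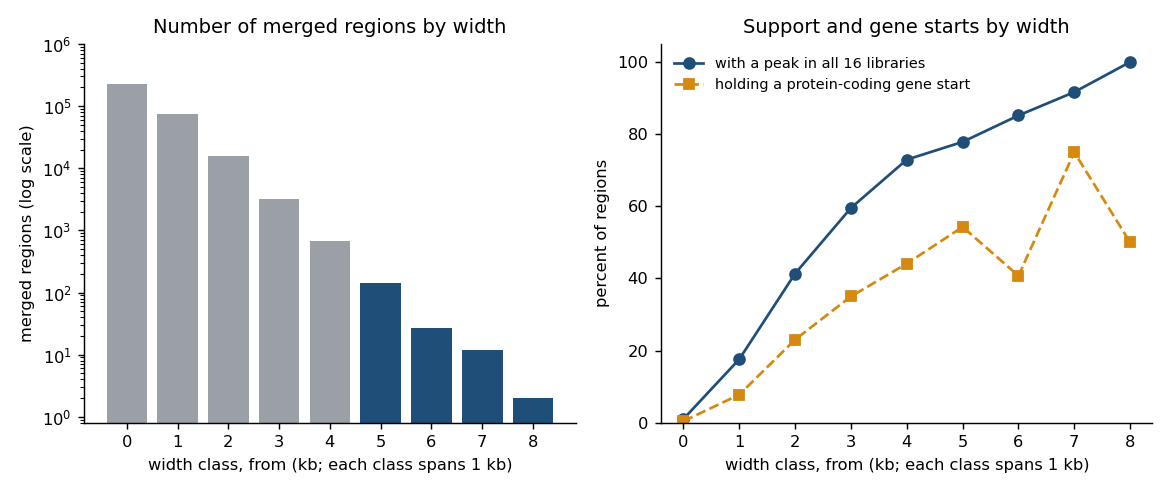
Left, number of merged regions in each 1-kb width class on a log scale, with the wide classes in dark blue; right, percent of the regions in each class with a peak in all 16 libraries (circles) and with a protein-coding gene start (squares). Only 12 regions are in the class from 7 kb and 2 in the class from 8 kb, so the last points rest on few regions.

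Most wide regions held a peak in every library, but which of their bases were covered differed between libraries. A peak was present in all 16 libraries at 145 of them (80.1%), against 61.9% of the regions of 3000 to under 5000 bases, and the fewest was 8 libraries. Of their bases, 15% were covered in 1 library, 39.9% in 2 to 7, 36.7% in 8 to 15 and 8.33% in all 16, and 70 regions had no base that all 16 libraries covered. A single peak of 5000 bases or more was listed at 40 regions, at 24 of them in 1 library, and the other 141 were chains of shorter peaks from different libraries. The longest single peak of a region had a median of 4159 bases, and the longest of all, 7122 bases, was at ID2 in progenitor day 90 replicate 2. If only bases covered in at least 2 libraries are joined, 58 regions stay at 5000 bases or more. The mean number of peaks per library was highest at GLI2 and IRX2 (3 each), and it was 2.81 at PRDM16 and BAZ2B.

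Of the 181 regions, 155 (85.6%) overlapped a protein-coding gene, 167 genes in all, and 97 (53.6%) held a protein-coding start. A start was held by 36.6% of the regions of 3000 to under 5000 bases and by 3.76% of all merged regions. A wider stretch is more likely to hold a start by its length alone, and these shares were not corrected for length. A long non-coding RNA gene overlapped 72, and microRNA genes overlapped 4. Wide regions were on every chromosome used, 2 to 17 on each, and 11 lay within 100 kb of another.

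Gene lists differed in how many members were overlapped. Of 40 transcription factors of telencephalon and cortex, 6 (15%) were overlapped, among them FEZF2, NFIB, POU3F3, SIX3 and SOX2. Of 56 patterning factors of ventral forebrain and other brain regions, 8 (14.3%) were overlapped: DLX6, EN1, IRX2, LHX1, LHX9, SIM2, ZIC1 and ZIC2. Radial glia genes gave 3 of 26 (CDON, DLL1 and NES), pan-neuronal genes 5 of 31 (among them DPYSL3, MYT1, SEZ6 and TUBB3), immediate early genes 2 of 20 (FOS and JUND), and genes of blood, microglia and endothelium 1 of 16 (RUNX1). The share over all 19974 protein-coding genes was 0.836%. An overlap can lie anywhere in a gene, and gene length was not taken into account. Of the telencephalic and cortical factors, 1 (SOX2, 2.5%) had its start inside a wide region. This held for 5 (8.93%) of the patterning factors, 2 (7.69%) of the radial glia genes and 3 (9.68%) of the pan-neuronal genes, beside 0.506% of all protein-coding genes. None was overlapped of 39 HOX genes, 29 housekeeping genes, 52 replication-dependent histone genes, 53 clustered protocadherins, 22 mesenchymal, 15 choroid plexus and ciliated epithelium, 13 oligodendrocyte lineage and 12 pluripotency genes.

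How far the wide regions were covered varied as much between libraries of a population as between populations. The percent of their bases covered was 55.7 and 50.2 in progenitors of day 40 (replicates 1 and 2), 57.1 and 40.7 in those of day 60, 62.6 and 61.1 in those of day 90, and 46.2 and 19.8 in those of day 120. It was 47.8 and 57.9 in neurons of day 40, 46.7 and 30.7 in those of day 60, 50.3 and 43.5 in those of day 90, and 38.5 and 33.4 in those of day 120. Progenitor day 120 replicate 2 was lowest and also had the shortest list, and the 2 progenitor libraries of day 90 were highest. The means were 49.2 ± 14% in progenitors and 43.6 ± 9.04% in neurons (SD, n = 8 each, two-sided exact permutation p = 0.361, adjusted p = 0.600 over 12 tests). Single peaks of at least 5000 bases numbered 7.38 ± 6.82 in progenitors and 2.38 ± 3.66 in neurons (SD, n = 8 each, exact permutation p = 0.0943, adjusted p = 0.566), with 18 and 15 in the day 90 progenitors.

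Late progenitors had fewer peaks per wide region before adjustment. The mean number of peaks per wide region was 1.66, 1.64, 1.62 and 1.43 in progenitors of days 90 and 120, against 1.70, 1.81, 2.11 and 2.40 in progenitors of days 40 and 60. The groups did not overlap (exact permutation p = 0.0286, the smallest that 4 against 4 allows), but the difference of -0.419 did not pass over the 12 tests (adjusted p = 0.343), and it was 0.058, the other way, in lists of equal covered length. In neurons the means were 1.82 ± 0.142 at days 90 and 120 and 1.72 ± 0.147 at days 40 and 60 (SD, n = 4 each, exact permutation p = 0.400). None of the 12 tests of library measures passed adjustment.

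**Figure D2:**
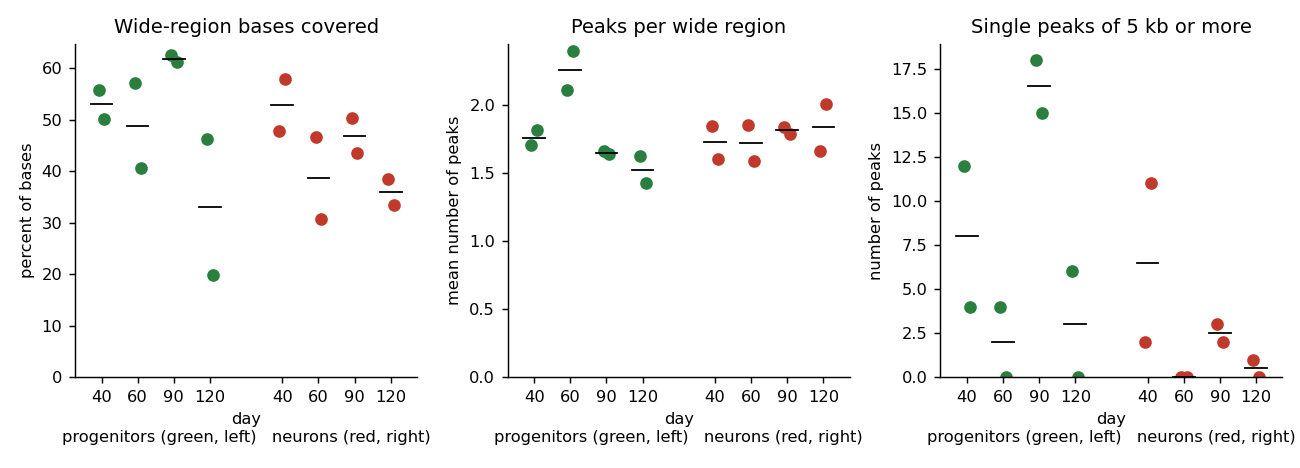
Percent of wide-region bases covered, mean number of peaks per wide region, and number of single peaks of 5 kb or more, for each library by day, progenitors in green on the left and neurons in red on the right; bars are means of 2 libraries. Progenitor day 120 replicate 2 covers 19.8%, the least of the 16, and the 2 progenitor libraries of day 90 hold 18 and 15 single peaks of 5 kb or more.

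Region by region, the populations differed in covered extent at 51 of the 181 wide regions. Covered bases were compared as log2 of the bases plus 500, less the log2 of the library's covered total, with limma across the 134261 merged regions that pass a filter (500 bases or more covered by each of 2 or more libraries) and Benjamini-Hochberg adjusted p-values at a threshold of 0.05. A log2 difference is on that scale, which understates changes of sparsely covered regions, and ± beside it is the SE of the fit. Progenitors were covered further at 34 regions (18.8%) and neurons at 17 (9.39%), while 21% of all regions tested were called higher and 20% lower in progenitors. In regions of 3000 to under 5000 bases these shares were 18.9% and 15.3%. Of the 51, 3 had fewer than 2 libraries at 500 bases in 1 population and passed the filter through the other. Without scaling to the covered total the counts were 27 and 8, and without progenitor day 120 replicate 2 they were 33 and 29. The median difference was 0.042 over the wide regions and -0.045 over all regions. On the scaled measure, 26 of the 34 and 15 of the 17 kept their sign at each of the 4 days. The calls average over these same days, so such agreement is partly built in, and its share over all called regions is not given here. A protein-coding start was held by 18 of the 34 and 9 of the 17, close to the share of all wide regions. Summed markers of other cell types also differed in median between the populations, with ranges that overlapped. Those of choroid plexus and ciliated epithelium summed to 2.28 to 8.44 kb (median 6.29) in progenitors and 1.79 to 5.47 kb (median 3.17) in neurons, and those of the GABAergic lineage to 9.67 to 19.0 kb (median 15) in progenitors and 7.93 to 20.9 kb (median 9.75) in neurons. Mesenchymal markers summed to 1.45 to 9.01 kb (median 7.58) in progenitors and 2.18 to 8.50 kb (median 4.79) in neurons, and oligodendrocyte lineage markers to 3.76 to 8.58 kb (median 7.14) in progenitors and 4.39 to 7.69 kb (median 5.12) in neurons. Pluripotency markers had medians of 1.68 kb in progenitors and 1.41 kb in neurons. Medians were larger in neurons for blood and microglia (3.64 kb, against 3.39 kb in progenitors) and for endothelium (4.98 kb, against 4.42 kb in progenitors). The part of these cell types in the results was not tested.

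**Figure D3:**
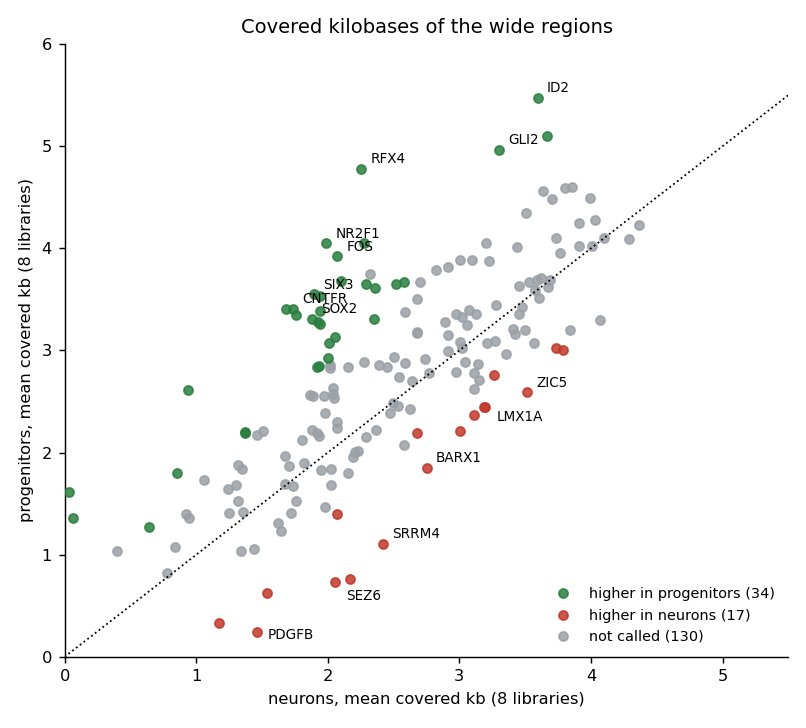
Mean covered kilobases of each of the 181 wide regions in progenitors (vertical, 8 libraries) against neurons (horizontal, 8 libraries), with regions higher in progenitors in green, higher in neurons in red and not called in grey; the dotted line marks equal values. Green points lie above the line and red points below it, with PDGFB and SEZ6 among the lowest red points and RFX4 and ID2 far above the line.

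Regions covered further in progenitors included some at transcription factor genes. RFX4, a winged-helix factor of dorsal neural tube and cilia, was covered over 1.48 to 6.33 kb (median 5.68) in progenitors and 1.76 to 4 kb (median 2.02) in neurons, at chr12:106581690-106588393. Of the 8 progenitor libraries, 6 had at least 4.70 kb, above every neuron library, and the libraries of day 120 had 2.75 and 1.48 kb (log2 difference 0.82 ± 0.14, limma adjusted p = 4.99e-05). Near NR2F1, the nuclear receptor that sets cortical areas, a region 3547 bases outside the gene at chr5:93598158-93604099 had 0.973 to 5.86 kb (median 4.43) in progenitors and 1.5 to 2.29 kb (median 2.07) in neurons (0.72 ± 0.13, limma adjusted p = 6.91e-05). Progenitor day 120 replicate 2 was the only progenitor library within or below the neuronal range there. SOX2 itself, the sorting gene, was added after its values were seen. It had 1.33 to 4.83 kb (median 3.55) in progenitors and 1.15 to 2.44 kb (median 2.01) in neurons at chr3:181707759-181713259 (0.58 ± 0.14, limma adjusted p = 0.00231), and the difference had this sign at 2 of the 4 days.

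Profiles along the regions located the difference within them. At RFX4, 2650 bases, which include the gene start, had a peak in at least 6 progenitor and at most 2 neuron libraries, while 1700 bases had one in at least 6 of each. At NR2F1 these lengths were 900 and 1750 bases. At SOX2, 1550 bases had a peak in at least 6 progenitor and at most 2 neuron libraries, and 550 bases around the downstream end had one in at least 5 neuron and at most 2 progenitor libraries. At SRRM4 and SEZ6, 1150 and 500 bases had a peak in at least 5 neuron and at most 2 progenitor libraries, and none had the reverse.

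**Figure D4:**
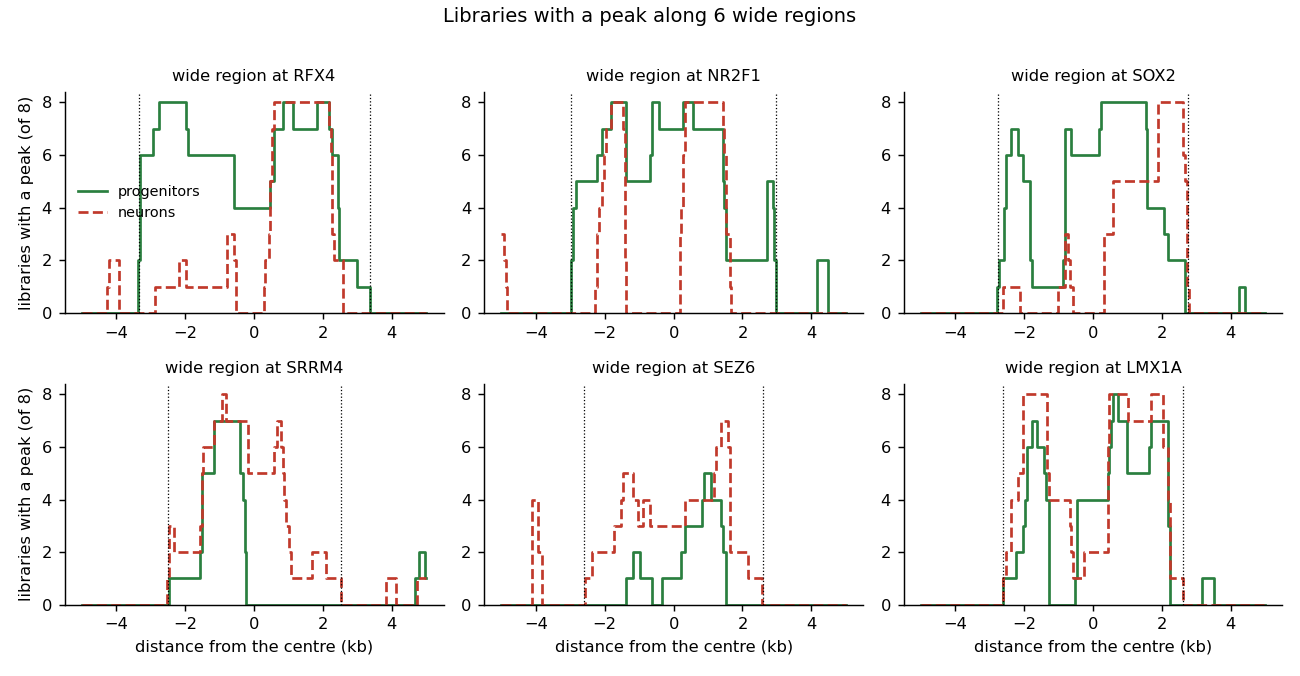
Number of libraries with a peak, of 8 per population, in 50-base steps along 6 wide regions against the distance from the region's centre; progenitors are solid green, neurons dashed red, and dotted lines mark the region's edges. At RFX4 the left part is covered in most progenitor libraries and in few neuron libraries, and the right part in both populations. At SRRM4 the right part is covered in neurons alone.

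Other progenitor regions lay in genes of varied kinds. At STON2, an endocytic adaptor, a stretch inside the gene had 0.349 to 2.60 kb (median 1.68) in progenitors, whereas 7 neuron libraries were listed at 0 and neuron day 90 replicate 2 had 0.253 kb (log2 difference 1.85). It was the single wide region whose populations did not overlap in covered kilobases. The gap was narrow, from 0.253 to 0.349 kb and below 500 bases, and the share of all merged regions so separated is not given here. A stretch 831 kb from its nearest protein-coding gene, ADGRB3, had 0.779 to 3.74 kb in 6 progenitor libraries and was listed at 0 in the other 2, and was at 0 in 6 neuron libraries and at 0.182 and 0.296 kb in the other 2 (log2 difference 1.39). At both, no neuron library reached the 500 bases that the filter asks for, so they were tested through the progenitors, where they are high, and their p-values are not given. BAZ2B, which encodes a bromodomain protein, had 1.48 to 4.72 kb (median 3.38) in progenitors and 1.16 to 2.36 kb (median 1.57) in neurons (0.74 ± 0.14, limma adjusted p = 0.000147). CNTFR, the receptor of ciliary neurotrophic factor, had 1.35 to 4.26 kb (median 3.91) in progenitors and 1.27 to 2.87 kb (median 1.61) in neurons (0.73 ± 0.13, limma adjusted p = 0.000114). The remaining members named by size were GYG2 (0.88), which primes glycogen synthesis, KIAA1958 (0.65) and DACH1 (0.64), a factor of the retinal and neural determination network. On the scaled measure progenitors were higher at each of the 4 days in these 3, but at day 40 neurons had the larger mean in covered kilobases in all 3.

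Among the widest regions, ID2 had 1.76 to 7.12 kb (median 6.10) in progenitors and 2.79 to 4.52 kb (median 3.67) in neurons (0.42 ± 0.12, limma adjusted p = 0.00714). GLI2 had 1.97 to 6.55 kb (median 5.01) in progenitors and 2.41 to 4.20 kb (median 3.21) in neurons (0.43 ± 0.12, limma adjusted p = 0.00649). FOS had 0.618 to 5.72 kb (median 4.48) in progenitors and 1.22 to 2.79 kb (median 2.20) in neurons (0.61 ± 0.17, limma adjusted p = 0.00468). In each of the 3, progenitor day 120 replicate 2 was below every neuron library and most other progenitor libraries were above the neuronal range. SIX3 (0.62 ± 0.20, limma adjusted p = 0.0172) and ZNF217 (0.47 ± 0.19, limma adjusted p = 0.0488) were also called higher in progenitors, but the calls were lost without 7 and 11 of the 16 libraries in turn, and ZNF217 had 0.28 without progenitor day 120 replicate 1. NFIB had medians of 3.74 kb in progenitors and 3.32 kb in neurons, CELF2 2.74 and 3.21 kb, and ACTB 3.92 and 3.21 kb, and these 3 were not called.

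**Figure D5:**
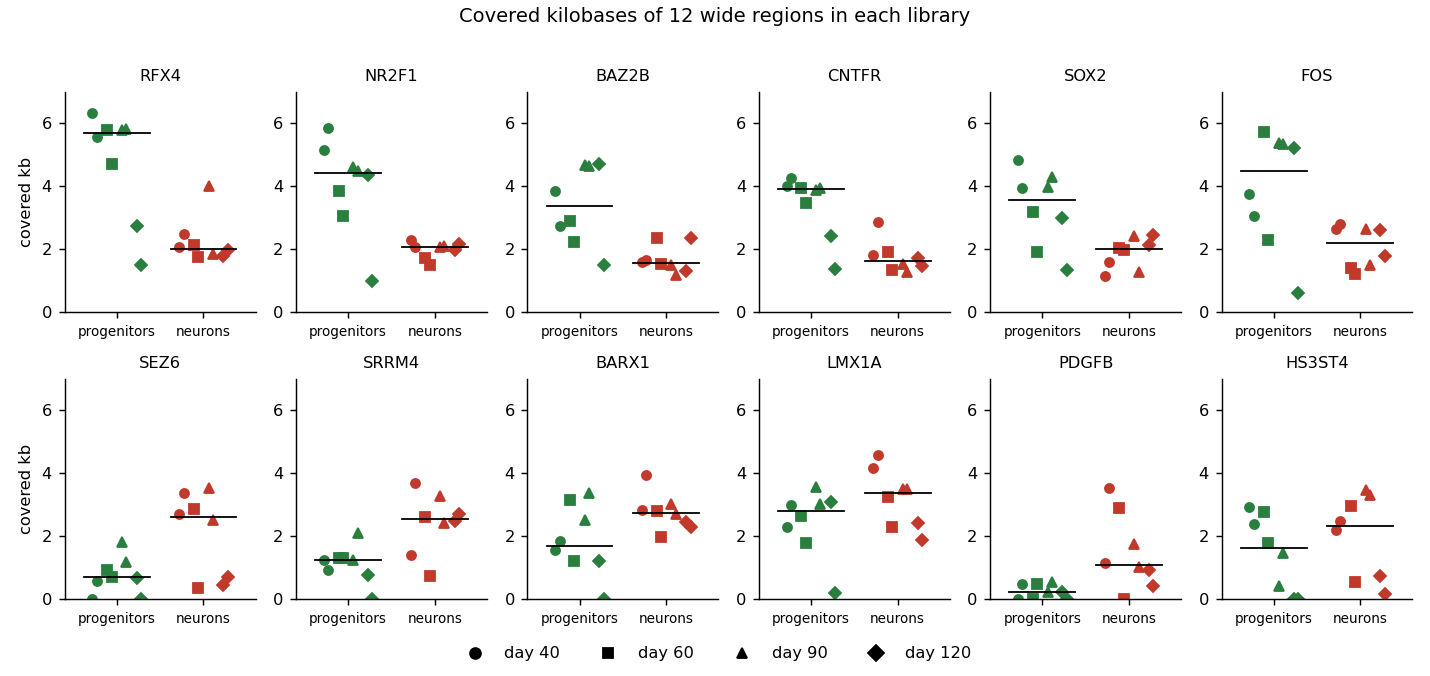
Covered kilobases of 12 wide regions in each library, progenitors in green on the left and neurons in red on the right of each panel; shapes give the day and bars the median of 8 libraries. At RFX4, NR2F1 and CNTFR most progenitor libraries are above all or nearly all neuron libraries, with progenitor day 120 replicate 2 the usual exception, and at SRRM4 and SEZ6 most neuron libraries are above the progenitor median.

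Regions covered further in neurons included genes of neuronal splicing and synapses. SRRM4, a splicing regulator that makes neurons include very short exons, had 0 to 2.09 kb (median 1.24) in progenitors and 0.733 to 3.70 kb (median 2.55) in neurons at chr12:118979886-118984906 (-0.94 ± 0.17, limma adjusted p = 0.000105). Of the neuron libraries, 6 were above every progenitor library, and neuron day 40 replicate 1 (1.41 kb) and day 60 replicate 2 (0.733 kb) were within the progenitor range. SEZ6, which acts at excitatory synapses, had 0 to 1.82 kb (median 0.685) in progenitors and 0.336 to 3.54 kb (median 2.60) in neurons at chr17:29002544-29007719 (-1.03 ± 0.19, limma adjusted p = 0.000111). Its neuron libraries of day 120 had 0.445 and 0.692 kb, within the progenitor range. KLF7, a zinc-finger factor of axon growth, had 0 to 0.999 kb (median 0.814) in progenitors and 0.705 to 3.06 kb (median 1.09) in neurons (-0.91 ± 0.16, limma adjusted p = 7.39e-05). Most of this difference lay at days 40 and 60, and the late values, given below, were close in both populations.

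Growth factor and patterning genes were also among them. PDGFB, a platelet-derived growth factor subunit, had 0 to 0.546 kb (median 0.222) in progenitors and 0 to 3.54 kb (median 1.08) in neurons (log2 difference -1.25), and it too passed the filter through the higher population, since 1 progenitor library reached 500 bases. BARX1, a homeobox gene, had 0 to 3.37 kb (median 1.70) in progenitors and 1.96 to 3.94 kb (median 2.74) in neurons (-0.71 ± 0.15, limma adjusted p = 0.000511). LMX1A, a homeobox factor of dorsal midline and midbrain dopamine neurons, had 0.184 to 3.57 kb (median 2.81) in progenitors and 1.87 to 4.58 kb (median 3.37) in neurons (-0.48 ± 0.14, limma adjusted p = 0.00901). These ranges overlap, and for LMX1A they overlap over most of their length. ZIC5 (-0.56), the SOX-family gene SOX7 (-0.56) and SLC60A1 (-0.99) were also called lower in progenitors, as was a stretch 33.2 kb from GOLGA6L9 (-1.24), a golgin gene of a family with near-identical copies, for which placement of reads is uncertain. The SOX7 call was lost without progenitor day 120 replicate 2 or neuron day 60 replicate 2, and the SLC60A1 call without progenitor day 120 replicate 1 or neuron day 60 replicate 1.

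How these calls stood depended on which peaks were counted. When every list was cut to 36.9 Mb by its highest q-values, the length of the shortest list, the wide regions kept 31.7 to 100% of their covered bases in progenitor libraries and 33.2 to 68.7% in neuron libraries, and 142 could be tested. The difference then turned sign for RFX4 (-0.56), NR2F1 (-0.095), SOX2 (-0.032), FOS (-0.40), SIX3 (-1.17), ZNF217 (-0.77), CNTFR (-1.44), IRX2 (-0.22) and LHX9 (0.049), and for ZIC5 (1.41), and those of ZNF217, CNTFR and ZIC5 were called the other way. BAZ2B, KLF7 and NES kept their calls, while GLI2 (0.43) and ID2 (0.45) kept their sign and lost the call. With peaks of a −log10 q of at least 3, the population calls lost included GLI2 (0.39, limma adjusted p = 0.0890) and SEZ6 (-0.73, limma adjusted p = 0.0734). FOS (0.47, limma adjusted p = 0.0519) and KIAA1958 (0.48, limma adjusted p = 0.0563) were lost there too. Those of RFX4, NR2F1, CNTFR, BAZ2B, ID2, SRRM4 and KLF7 held at that setting. Without scaling, the calls of FOS, ID2, SIX3, ZNF217, DACH1, IRX2, ZIC5, SOX7, LMX1A, LHX9 and SLC60A1 between populations were lost, although the differences changed little. They were 0.42 to 0.69 without scaling and 0.37 to 0.64 with it for the 6 regions higher in progenitors, and -0.94 to -0.36 without scaling and -0.99 to -0.42 with it for the 5 lower ones. Peaks inside wide regions had a low deposited fold enrichment within their own list, with median percentiles of 5.49 to 22.3 in progenitor libraries and of 8.13 to 12.8 in neuron libraries. By q-value, on which both cuts were made, they were near the middle of their list. Their median q percentiles were 52.2 to 59.9 in progenitor libraries and 44.8 to 67.1 in neuron libraries.

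By list, the telencephalic and cortical factors had a median log2 difference of 0.25 over 6 regions, beside 0.042 over all wide regions. SIX3, SOX2 and POU3F3 were called higher in progenitors and none was called lower, while FEZF2 had medians of 2.94 kb in progenitors and 2.51 kb in neurons. The ventral and other patterning factors had a median of 0.15 over 8 regions, with IRX2, SIM2 and ZIC1 called higher and LHX9 lower in progenitors. The IRX2 call was lost without 9 libraries in turn, with 0.25 without progenitor day 40 replicate 1. Of the radial glia genes, NES, which encodes the filament protein nestin, had 1.52 to 4.90 kb (median 3.21) in progenitors and 0.782 to 3.75 kb (median 1.9) in neurons (0.49 ± 0.15, limma adjusted p = 0.0125). DLL1, a Notch ligand, and CDON, a Hedgehog co-receptor, had medians of 2.81 and 3.89 kb in progenitors and of 2.49 and 3.22 kb in neurons, and were not called. Of the 5 pan-neuronal genes, SEZ6 was called lower in progenitors and the other 4 were not called, among them MYT1, a neuronal zinc-finger factor, with medians of 2.93 kb in progenitors and 3.56 kb in neurons. JUND and RUNX1 were not called.

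Within each population, libraries of days 90 and 120 were set against those of days 40 and 60. Late progenitors were covered further at 5 wide regions and less far at 7 of the 181, beside 7.21% higher and 1.42% lower of all regions tested. Late neurons were covered further at 17 and less far at 4, beside 9.87% and 1.41%. Scaling decided this direction in neurons, where 1 region was called higher and 6 lower without it, beside 7.24% and 12.7% of all regions. In progenitors 0 were called higher and 3 lower without it, beside 6.38% and 6.82% of all regions. The wide regions of progenitors leaned lower at either setting, with a median difference of -0.065 with scaling and -0.18 without it. Over all regions the median difference without scaling was 0 in progenitors and -0.078 in neurons, against 0.11 and 0.18 with scaling. Because the total is subtracted after the pseudocount, a region listed at 0 gets a higher scaled value where the list is shorter.

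The ZIC2 and ZIC5 genes, which lie side by side, held or neighboured 3 wide regions. The one over ZIC5 was not called late against early (adjusted p = 0.103 in progenitors and 0.818 in neurons). The one over ZIC2, at chr13:99977906-99985163, had 5.87, 6.27, 5.65 and 2.57 kb in late progenitors, against 2.84, 2.72, 3.45 and 2.83 kb in early progenitors (0.74 ± 0.16, limma adjusted p = 0.00446), and the call was lost without scaling (0.63, adjusted p = 0.1). The next, 57 bases beyond the gene at chr13:99986822-99992526, went the other way, with 2.04, 1.68, 1 and 0 kb in late progenitors, against 5.43, 4.26, 3.09 and 3.35 kb in early progenitors (-1.53 ± 0.29, limma adjusted p = 0.00172). In late neurons it had 0, 0.193, 0 and 0 kb, against 1.67, 3.28, 2.37 and 0 kb in early neurons (-1.51 ± 0.29, limma adjusted p = 0.000912). It was also further covered in progenitors than in neurons over all days (1.28 ± 0.20, limma adjusted p = 2.26e-05), with at least 1 kb in 7 of 8 progenitor libraries and none in 4 of 8 neuron libraries. Without scaling the call in progenitors was lost (-1.64, adjusted p = 0.0584) and that in neurons held (-1.77, adjusted p = 0.0311), while with peaks of a −log10 q of at least 3 the call in progenitors held (-1.64, adjusted p = 0.00208) and that in neurons was lost (-0.32, adjusted p = 0.753).

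Other regions less covered late included HS3ST4, a heparan sulfate sulfotransferase gene, with 0.412, 1.45, 0 and 0 kb in late progenitors, against 2.91, 2.39, 2.75 and 1.79 kb in early progenitors (-1.73 ± 0.28, limma adjusted p = 0.000501). The groups did not overlap, and the call held without scaling. LHX9, a homeobox factor of diencephalon and pallium, fell in progenitors (-0.97 ± 0.21, limma adjusted p = 0.0041), as did SIX3 (-0.90 ± 0.29, limma adjusted p = 0.0483), where progenitors of day 120 had 1.11 and 0.239 kb, against 6.95 and 3.99 kb at day 40. Both calls were lost without scaling (-1.08 at LHX9 and -1.01 at SIX3), and that of SIX3 also without 8 of the 16 libraries in turn. In neurons, DACH1 had 0.245, 1.89, 0 and 0 kb late, against 2.37, 2.63, 2.58 and 1.24 kb early (-1.43 ± 0.27, limma adjusted p = 0.000789), a call lost with peaks of a −log10 q of at least 3 (-0.64, adjusted p = 0.355). SFRP2, a secreted Wnt antagonist, had 1.66, 1.57, 0.935 and 0.793 kb in late neurons, against 3.58, 4.44, 2.03 and 3.17 kb in early neurons (-0.86 ± 0.22, limma adjusted p = 0.00911). Its groups did not overlap, its call held without scaling (-1.12), and it was lost without neuron day 40 replicate 2 or day 60 replicate 2 and with peaks of a −log10 q of at least 3 (-0.13, adjusted p = 0.902). OCA2, which is needed for melanin synthesis, was lower in late neurons (-0.66 ± 0.19, limma adjusted p = 0.0185), a call lost without 4 of the libraries in turn. In lists of equal covered length, none of the named late-against-early calls that could be tested was kept.

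Other regions were covered further late. Near SOX4, a factor of neuronal differentiation, late progenitors had 3.30, 2.48, 3.11 and 1.31 kb, against 0, 0.397, 2.96 and 1.05 kb in early progenitors (1.35 ± 0.26, limma adjusted p = 0.00216). CHL1, a neural cell adhesion gene, had 4.78, 2.17, 2.72 and 2.42 kb in late neurons, against 2.27, 1.84, 1.15 and 0.986 kb in early neurons (1.03 ± 0.22, limma adjusted p = 0.00214), and it turned sign in lists of equal covered length (-0.24). EXTL3 (1.11) and SMAD3 (1.03) were also called higher in late neurons and ITPK1 (0.75) in late progenitors, and a stretch 892 kb from C4orf33 was called in both populations (1.41 in progenitors and 1.34 in neurons). All of these calls were lost without scaling, where the differences were 0.64 to 1.30. The C4orf33 call was also lost without 8 of the 16 libraries in turn in progenitors, with 0.75 without progenitor day 60 replicate 2, and without 7 in neurons, with 0.89 without neuron day 120 replicate 1. The SMAD3 call was lost without 7 libraries in turn, with 0.60 without neuron day 40 replicate 1, and the ITPK1 call without 6. The C4orf33 stretch was listed at 0 in 8 of the 16 libraries, day 120 replicate 2 of both populations included.

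The change with time differed between populations at 2 wide regions, where the change in progenitors less that in neurons was called positive at 0.36% of all regions and negative at 0.417%. KLF7 had 0.999, 0.719, 0.918 and 0.526 kb in late progenitors, against 0, 0, 0.909 and 0.913 kb in early progenitors, and 0.960, 0.892, 0.978 and 0.705 kb in late neurons, against 2.92, 1.57, 3.06 and 1.21 kb in early neurons (difference of the changes 1.35 ± 0.32, limma adjusted p = 0.0420). HS3ST4 fell in progenitors as above, and neurons had 3.47, 3.32, 0.741 and 0.165 kb late, against 2.21, 2.47, 2.95 and 0.540 kb early (difference of the changes -1.69 ± 0.39, limma adjusted p = 0.0386). Leaving out each library in turn gave 0 to 12 such regions, with 12 without progenitor day 120 replicate 2, and 22 were called without it and neuron day 60 replicate 2. KLF7 lost this call without 13 libraries in turn and HS3ST4 without 11, HS3ST4 lost it without scaling (adjusted p = 0.0804), and KLF7 turned sign in lists of equal covered length (-0.89).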

How the data were processed

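Open chromatin was measured by ATAC-seq in 16 libraries, 8 groups of 2. Groups and replicate numbers came from the sample titles and labels. Tn5 acted on nuclei for 30 minutes, per the labels' protocols. The submitters' processing notes name MACS2 2.1.2, Trim Galore 0.5.0, SAMtools 1.9, BWA 0.7.17 and Picard, and hg38. How duplicates and the Tn5 offset were handled is not given in the sources used. Each library has its own deposited list of broad peaks, with a score of 10 times the −log10 q-value. The deposited ratio is the fold enrichment, and the deposited −log10 p-values and q-values follow it; all are the authors' own and served to rank or filter peaks of a list. Read numbers are not in the lists, so depth is unknown and no interval or floor can be given, and a deeper library can list more and wider peaks.

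Peaks were merged across libraries and covered bases counted per library and region in Python 3.11.15. Regions covered over 500 bases or more by 2 or more libraries entered 1 limma 3.58.1 fit (R 4.3.3, trend in the prior variance, 8 group means). All 181 wide regions passed this filter. The fit was tested on simulated data. Library measures were compared with exact permutation tests over libraries, adjusted over 12 tests. Genes and promoters are RefSeq, GRCh38.p14, joined by coordinates and symbol; all members of the 14 gene lists matched.

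Named were the 10 widest regions, the 10 largest and 10 smallest called population differences with 1 sign at 4 days, the 4 largest and 4 smallest called time differences per population, the regions around the threshold, the 5 with most peaks, and at most 3 regions per list. SOX2, NRARP, HSP90AA1, HSPH1 and HSPD1 were added after their values were seen, and single members of the lists are named beside their counts. Some named regions are not reported here. The members and lists were chosen with earlier results of these data known.

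Alternatives were no scaling, lists of equal covered length, peaks with −log10 q of at least 3, a pseudocount of 100 bases, no filter, a replicate block, and each library left out. Same-numbered libraries did not in general deviate together (correlations -0.25 to 0.32 over 28 pairs of groups, 5 above 0.1), and replicate numbers were not used as pairs. Between progenitors and neurons of the same day, the correlations were -0.082 (day 40), 0.25 (day 60), 0.13 (day 90) and -0.041 (day 120). At the heat-shock genes below, replicate 1 was above replicate 2 in each group shown. Whether same-numbered libraries of a day share a culture was not tested.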

Additional observations from a re-analysis of the deposited data

Results flagged for a closer look

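Progenitor day 120 replicate 2 had 1.43 peaks per wide region, the lowest of the 4 late progenitor libraries and far from the other 3. This library also had the shortest list and covered 19.8% of wide-region bases. Neuron day 40 replicate 2 had 11 single peaks of 5000 bases or more, the most of the 8 neuron libraries, while the others had 0 to 3. A sample stands this far out by chance in about 1 in 20 groups, and 24 groups of libraries were examined.

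The change from early to late differed between the populations at KLF7 (1.35, progenitors minus neurons) and at HS3ST4 (-1.69), by limma's test of the difference of the changes (adjusted p = 0.0420 and 0.0386).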

How the results depend on the processing

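Of the 60 called differences of named regions, 36 were called with each library left out in turn, 24 lost the call without at least 1 library and 0 turned sign. Under the other settings, the replicate block left 59 called, no filter 56, a pseudocount of 100 bases 47, no scaling 27, and a −log10 q of at least 3 left 31 called, 23 not called and 3 turned. Lists of equal covered length left 3 called, 19 not called and 16 turned, namely NFIB (-0.31), ZIC2 (-0.88), CHL1 (-0.24) and PRDM16 (-2.4e-05) in late minus early neurons, KLF7 in the difference of the changes (-0.89), and in progenitors minus neurons SIX3 (-1.17), ZNF217 (-0.77), FOS (-0.40), ZIC5 (1.41), RFX4 (-0.56), CNTFR (-1.44), NR2F1 (-0.095), LHX9 (0.049), IRX2 (-0.22), SOX2 (-0.032) and NRARP (-0.65). A −log10 q of at least 3 turned ZIC5 (0.16), GYG2 (-0.088) and, late minus early in progenitors, HSP90AA1 (0.65).

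Counts of called wide regions moved as follows. Progenitors above neurons stood at 34 (24 to 39 with each library left out), and progenitors below neurons at 17 (13 to 29), with 8 without scaling and 28 without the 2 shortest lists, a setting chosen after seeing the data. Late progenitors above early stood at 5 (2 to 6), with 0 without scaling, 3 in lists of equal length, 2 at −log10 q of at least 3, 3 with a pseudocount of 100 and 3 without the 2 shortest lists. Late progenitors below early stood at 7 (3 to 12), with 3 without scaling, 11 without a filter and 13 without the 2 shortest lists. Late neurons above early stood at 17 (4 to 26), with 1 without scaling, 7 in lists of equal length, 7 at −log10 q of at least 3 and 34 without the 2 shortest lists. Late neurons below early stood at 4 (3 to 9), with 1 in lists of equal length, 8 at −log10 q of at least 3, 7 without a filter and 7 without the 2 shortest lists. The difference of the changes stood at 2 (0 to 12), with 10 in lists of equal length, 4 with a pseudocount of 100, 6 without a filter and 22 without the 2 shortest lists.

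Library measures turned sign without passing a test. In lists of equal length, late minus early was 0.0025 for the percent of the list inside wide regions, 0.091 for the percent covered and 0.058 for peaks per region in progenitors, and -0.087 for the percent of the list in neurons; with regions from replicate 1 measured in replicate 2 the first was 0.013. With each library left out, peaks per region in progenitors minus neurons ranged from -0.062 to 0.077, the percent covered in late minus early progenitors from -8.53 to 5.72, and single wide peaks in late minus early neurons from -2.83 to 0.833. The cause of these changes was not tested. A replicate block gave 35 and 17 regions between populations and changed no count by over 1.5 times, and it lost 1 named call. Depth is unknown, so a region listed at 0 may be open below the callers' threshold.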

Other observations

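Genes of signalling pathways held by wide regions were read off after their values were seen. NRARP, a feedback inhibitor of Notch signalling, had 1.52 to 5.72 kb (median 3.81) in progenitors and 1.58 to 2.88 kb (median 2.34) in neurons (0.46 ± 0.13, limma adjusted p = 0.00753), but -0.65 in lists of equal covered length. Other Notch genes were not called: HES4 had a median of 2.12 kb in progenitors, against 1.82 kb in neurons, and MAML3, a co-activator, had 4.76 kb in progenitors, against 3.85 kb in neurons. Of Hedgehog genes, PTCH1, the receptor, had a median of 4.20 kb in progenitors, against 4.32 kb in neurons, and was not called, unlike GLI2. Of Wnt genes, the receptor FZD8 had a median of 4.44 kb in progenitors, against 3.46 kb in neurons, the ligand WNT11 had 3.69 kb in progenitors, against 2.64 kb in neurons, and neither was called. By symbol, 3 of 5 ZIC genes, 2 of 19 SOX genes, 4 of 52 FOX genes, 2 of 8 LHX genes, 4 of 477 numbered ZNF genes and none of 390 olfactory receptor genes were overlapped.

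Wide regions at heat-shock genes, added after their values were seen, differed between the 2 libraries of some groups. Only some of the 8 groups are given here, and in each of them replicate 1 was above replicate 2. Near HSPH1, progenitor day 90 replicates 1 and 2 had 3.05 and 0.325 kb, neuron day 40 replicate 1 had 4.55 kb and replicate 2 was listed at 0, and neuron day 90 replicates 1 and 2 had 3.30 and 0 kb. Near HSPD1 these pairs were 1.6 and 0.959 kb, 3.27 and 0 kb, and 1.63 and 0.711 kb. At HSP90AA1, the inducible Hsp90 gene, they were 3.54 and 2.17 kb, 4.03 and 1.72 kb, and 3.66 and 2.31 kb. HSP90AA1 was called lower in progenitors than in neurons (-0.55 ± 0.17, limma adjusted p = 0.0094), a call lost without scaling (adjusted p = 0.170).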
